A study of Mus musculus with 2 samples.

Results

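Cilp Mfap4 matrix fibroblasts are mouse heart fibroblasts chosen by measured values, namely their UMIs of Cilp, Mfap4, Comp and Meox1. They numbered 716 of the 3423 cells that passed a fibroblast gate and of the 10667 cells deposited. Of these members, 349 came from hearts that overexpress adenylyl cyclase 8 (AC8) and 367 from wild-type (WT) hearts. Adenylyl cyclase 8 makes the second messenger cyclic AMP, and the series title places its overexpression in cardiomyocytes, so fibroblasts are not the cells meant to carry it. The AC8 library came from AC8-overexpressing C57/B6 mice and the WT library from wild-type C57/B6 littermates. Neither group was treated, the mice of a genotype were pooled, and their number and age are not in the sources used here. Sorted leukocytes (CD45+CD31-), CD45-CD31- cells and endothelial cells (CD45-CD31+) were mixed in equal numbers, which gave 1 droplet library per genotype. With 1 library each, differences between genotypes have no replicate check, no p-value is given, and intervals cover counting error only. Summed values cannot tell more cells with a transcript from more transcript per cell.

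Fibroblasts of the heart hold the myocardium together by secreting collagens, elastic fibres and proteoglycans. Cilp (cartilage intermediate layer protein) is a secreted protein that dampens TGF-beta signalling, and Mfap4 is a microfibril-associated glycoprotein of elastic fibres. Comp is a thrombospondin that binds collagens, and Meox1 is a homeobox transcription factor linked to fibroblast activation in pressure-loaded mouse hearts. TGF-beta drives fibroblasts towards the secretion of periostin (Postn) and other matrix proteins.

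Membership followed a fixed rule on unique molecular identifiers (UMIs), each of which marks a captured RNA molecule. Cells under 1000 UMIs or 500 genes, or with over 10% mitochondrial UMIs, were left out. A cell also needed at least 5 UMIs of Dcn, Col1a1 and Col3a1 together and no UMI of Pecam1 or Ptprc, which left 1521 AC8 and 1902 WT cells. Its share of UMIs from Cilp, Mfap4, Comp and Meox1 then had to exceed that of 3 rival sets, each divided by its mean over these cells. The rivals were the Cxcl14 set (with Smoc2, Dpep1 and Hsd11b1), the Ccl19 set (with Srpx, Mmp3 and Osr1) and the Pi16 set (with Cd248, Ackr3 and Tmem100). All remaining gate cells are called other fibroblasts, 1172 in AC8 and 1535 in WT. The choice of cells fixed the 16 set genes and the gate genes, so their values describe that choice.

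The members carried the label's markers and general fibroblast markers, and some held transcripts of other cell types. All 12 fibroblast identity genes, among them Pdgfra, Tcf21 and the gate gene Dcn, were detected, at a summed 71541 CPM in AC8 and 67671 CPM in WT. Members held a median of 2989 UMIs in AC8 and 2403 UMIs in WT. Macrophage markers summed to 959.9 CPM in AC8 and 224 CPM in WT members and to 871 CPM in AC8 and 378 CPM in WT other fibroblasts. At least 1 of their UMIs was found in 146 AC8 and 103 WT members, and the 10 highest cells held 81.0% and 49.0% of them. Fcgr1 was at 0 in both, and Adgre1 in WT. B cell markers had 86 UMIs in 12 AC8 members and 0 in WT members. Endothelial markers came to 137 CPM in AC8 and 124 CPM in WT, mural markers to 23.6 CPM in AC8 and 88.5 CPM in WT and Schwann cell markers to 19.9 CPM in AC8 and 35.2 CPM in WT. Cardiomyocyte markers came to 17.2 CPM in AC8 and 16 CPM in WT, red cell markers to 34.4 CPM in AC8 and 17.1 CPM in WT, and T and NK cell markers to 1.81 CPM in AC8 and 5.33 CPM in WT. Mesothelial markers had 0 UMIs in AC8 and 3 in WT members. No doublet caller was run, and barcodes are deposited as running numbers, so barcodes shared by the libraries could not be counted.

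Members rested on more set UMIs in AC8 than in WT. The median was 9 in AC8 and 7 in WT, and 12 AC8 and 30 WT members held a single one. All 4 genes were detected in 55 AC8 and 20 WT members, 3 genes in 113 and 71, 2 genes in 124 and 142, and 1 gene in 57 and 134. After each cell was thinned to 1000 UMIs, Mfap4 was found in 66.8% of AC8 and 73.3% of WT members (85.1% and 85.0% before thinning). Meox1 was found in 51.6% of AC8 and 30.5% of WT (79.7% and 55.0% before), Cilp in 40.7% of AC8 and 24.8% of WT (55.0% and 33.8%) and Comp in 19.5% of AC8 and 12.8% of WT (27.8% and 19.9%). In thinned cells of the leukocyte gate, which should lack these genes, none of the 4 passed 0.509%. Within 10% of the threshold lay 28 AC8 and 39 WT members inside and 20 and 31 cells outside. The set exceeded the next by a ratio of 1.007 in the lowest AC8 member and 1.005 in the lowest WT member.

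Members made up 22.9% of AC8 gate cells (exact binomial 95% interval 20.9% to 25.1%) and 19.3% of WT ones (17.5% to 21.1%). With every cell thinned before the sets were compared, the shares were 23.8% and 19.7%. Over the whole gate, Cilp had 265 CPM in AC8 against 154 CPM in WT, Comp 118 CPM in AC8 against 68.5 CPM in WT and Meox1 298 CPM in AC8 against 170.0 CPM in WT, where CPM are UMIs per 1000000. Mfap4 had 623 CPM in AC8 against 641 CPM in WT. Since these defining genes differed between the libraries, no direction is read from the shares.

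Within members, Cilp had 959 CPM in AC8 against 588 CPM in WT, and in other fibroblasts 36 CPM in AC8 against 37.8 CPM in WT. Mfap4 had 1737 CPM in AC8 against 2094 CPM in WT in members and 255 CPM in AC8 against 253 CPM in WT in others. Comp had 426 CPM in AC8 against 268 CPM in WT in members and 15.6 CPM in AC8 against 15.4 CPM in WT in others. Meox1 had 820.3 CPM in AC8 against 485 CPM in WT in members and 125 CPM in AC8 against 85.9 CPM in WT in others. Cilp, Comp and Meox1 were thus higher in AC8 members and Mfap4 in WT members. Of the Cxcl14 set, members had 51.7 CPM in AC8 against 70.3 CPM in WT of the chemokine Cxcl14, 237 CPM in AC8 against 605 CPM in WT of Smoc2, 386 CPM in AC8 against 479 CPM in WT of the peptidase Dpep1 and 34.4 CPM in AC8 against 44.8 CPM in WT of the steroid enzyme Hsd11b1. Of the Ccl19 set, they had 164 CPM in AC8 against 166 CPM in WT of the chemokine Ccl19, 133 CPM in AC8 against 71.4 CPM in WT of Srpx, 79.8 CPM in AC8 against 26.6 CPM in WT of stromelysin Mmp3 and 139.6 CPM in AC8 against 113 CPM in WT of the transcription factor Osr1. These 8 genes lay below their level in other fibroblasts of the same library. Of the Pi16 set, members had 2349 CPM in AC8 against 2253 CPM in WT of Pi16, 274 CPM in AC8 against 266 CPM in WT of endosialin Cd248, 484 CPM in AC8 against 357 CPM in WT of the scavenger receptor Ackr3 and 151 CPM in AC8 against 150.3 CPM in WT of Tmem100. Pi16 stood nearer to other fibroblasts, which had 2508 CPM in AC8 against 2699 CPM in WT.

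Beyond the rule, members of both libraries held more periostin and other matrix transcripts than other fibroblasts. Postn, a matricellular protein of healing and loaded tissue, had 1046 CPM in AC8 against 490.3 CPM in WT in members and 180.3 CPM in AC8 against 134 CPM in WT in other fibroblasts, a ratio of 5.8-fold in AC8 and 3.66-fold in WT. Ccn2 (connective tissue growth factor) had 2101 CPM in AC8 against 2145 CPM in WT in members and 636 CPM in AC8 against 566 CPM in WT in other fibroblasts. Prg4 (lubricin, a lubricating proteoglycan of joints) had 477 CPM in AC8 against 253 CPM in WT in members and 112 CPM in AC8 against 70.3 CPM in WT in other fibroblasts. For all 3, members of either genotype lay above other fibroblasts of either genotype. The ratio of members to other fibroblasts was 4.11-fold in AC8 and 3.42-fold in WT for Dkk3, a secreted Dickkopf family protein. It was 3.49 and 2.83 for Cytl1, a secreted protein of cartilage, 3.08 and 2.32 for the short-chain collagen Col8a1 and 2.44 and 3.79 for the microfibril-binding Adamtsl2. It was 2.58 and 2.32 for the TGF-beta-induced Tgfbi, 2.39 and 2.54 for the actin crosslinker Actn1 and 2.7 and 2.25 for the LIM protein Csrp2. Itgbl1 had ratios of 2.21 and 2.75 and Fxyd6, a regulator of the sodium pump, of 2.16 and 2.15. These 12 genes were named for the size of this ratio, which describes cells chosen by the rule. Among them, Cytl1 was found in only 25 AC8 and 29 WT members. The 10 highest cells held 82.2% of its UMIs in AC8 members and 69.2% in WT members. In WT, cells led by the Ccl19 set had 233 CPM of Cytl1, above the 183 CPM of members.

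**Figure D1:**
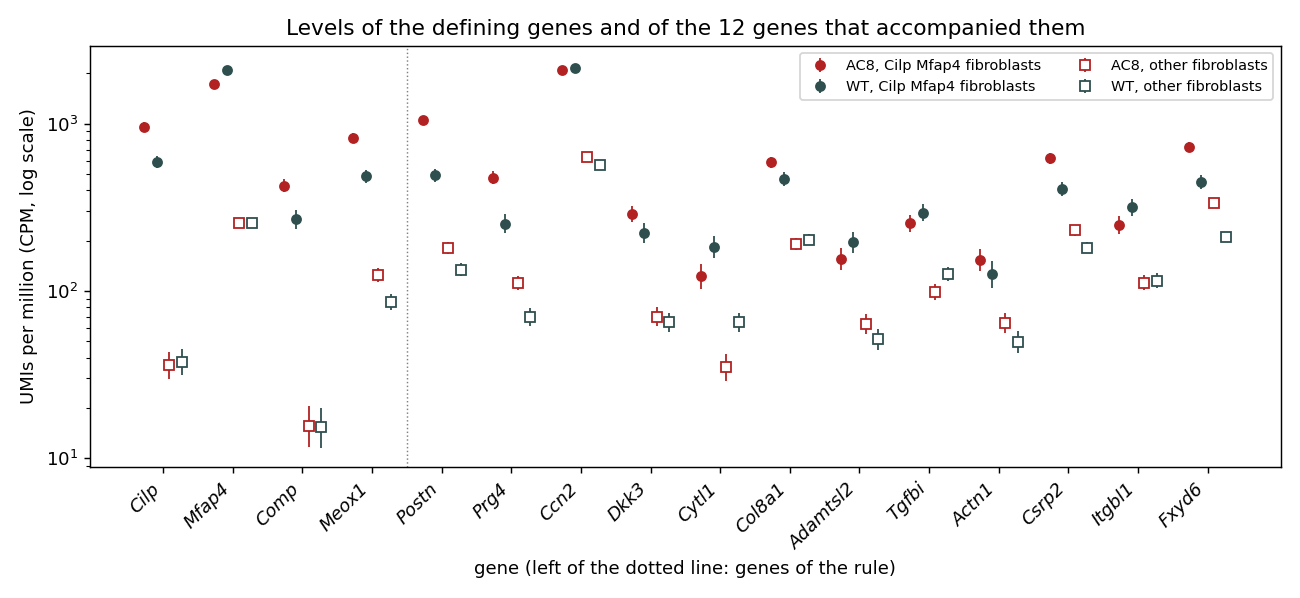
CPM (log scale) of the 4 defining genes and the 12 genes that accompanied them, in members and in other fibroblasts of AC8 and WT, with exact Poisson 95% counting intervals. Every gene lies higher in members than in other fibroblasts of the same library, and Postn, Prg4, Cilp, Comp and Meox1 lie higher in AC8 than in WT members.

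At the other end stood Efemp1, a fibulin, with a ratio of members to other fibroblasts of 0.259-fold in AC8 and 0.148-fold in WT, and the interferon-inducible Ifi205, at 0.265 and 0.268. The ratio was 0.342 and 0.341 for lipoprotein lipase (Lpl), 0.386 and 0.363 for the laminin chain Lamb1 and 0.335 and 0.399 for the ferritin receptor Scara5. It was 0.378 and 0.423 for the aggrecanase Adamts5, 0.416 and 0.314 for autotaxin (Enpp2) and 0.299 and 0.436 for proenkephalin (Penk). Of 9432 genes with at least 30 UMIs in AC8, 2.41% were at least 1.5-fold higher in members and 3.45% lower. Of 9559 such genes in WT, 2.6% were higher and 3.18% lower. Of 9142 genes tested in both libraries, outside the rule genes, 104 were higher in both (52.5% of 198 in AC8 and 45.2% of 230 in WT). Lower in both were 97 genes (31.6% of 307 and 35.5% of 273). Beside each of these counts, 6 genes were called in opposite directions in the 2 libraries. Of the activated fibroblast markers 10 of 22 were at least 1.5-fold higher in AC8 and 11 of 21 in WT, and of the TGF-beta genes 8 of 24 and 11 of 24. Of the elastic fibre genes 7 of 23 and 5 of 23 were higher, of the cartilage and tendon genes 4 of 8 and 7 of 9, and of the collagen chains 6 of 22 and 6 of 21. At least 1.5-fold lower were 2 and 2 of the elastic fibre genes, among them Efemp1, and 2 and 2 of the collagen chains. Of the activated markers 1 and 1 were lower, of the TGF-beta genes 1 and 0, and of the cartilage and tendon genes 0 and 0. The collagen chains had median log2 ratios of 0.04 in AC8 and -0.08 in WT.

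Members were not uniform, and their leading set gene divided them. Mfap4 led in 174 AC8 and 234 WT members, Cilp in 62 and 41, Meox1 in 64 and 41 and Comp in 17 and 25, with ties in 32 and 26. Postn in AC8 and WT had 1543 and 1412 CPM in Cilp-led members and 835 and 1050.1 CPM in Meox1-led members. It had 1018 and 274 CPM in Mfap4-led and 802 and 169 CPM in Comp-led members. In WT, Postn was thus high in Cilp-led and Meox1-led members and low in Mfap4-led and Comp-led ones, while every kind of AC8 member lay above those low levels. The AC8 over WT ratio of Postn was 4.73 (2.39 to 10.2) in Comp-led, 3.71 (3.12 to 4.45) in Mfap4-led and 2.93 (1.54 to 6.02) in tied members. It was 1.09 (0.902 to 1.33) in Cilp-led and 0.796 (0.622 to 1.02) in Meox1-led members. By number of set genes detected, it was 3.04 (2.06 to 4.51) with 1, 2.59 (2.03 to 3.33) with 2 and 1.27 (1.11 to 1.45) with 3 or 4. Postn and Cilp UMIs had a Spearman correlation of 0.22 over 349 AC8 cells and 0.26 over 367 WT cells, which share a library and differ in depth. For the other set genes the correlation with Postn in AC8 and WT was 0.09 and -0.20 for Mfap4, -0.01 and 0.01 for Comp and 0.12 and 0.16 for Meox1.

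**Figure D2:**
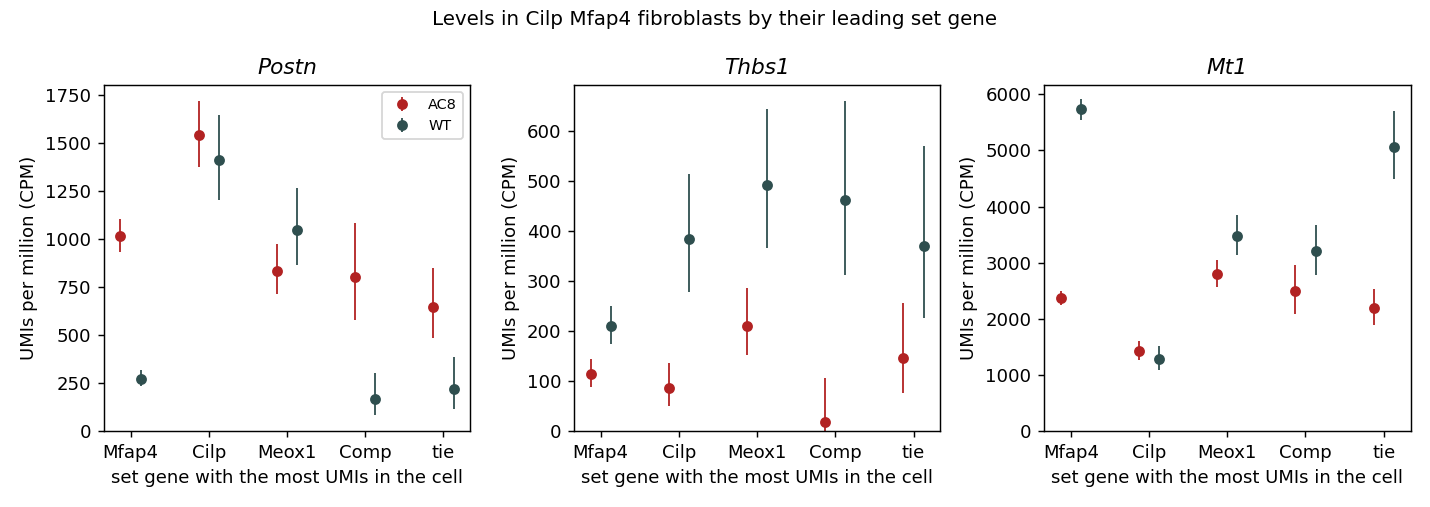
CPM of Postn, Thbs1 and Mt1 in AC8 and WT members, by the set gene with the most UMIs in the cell, with exact Poisson 95% counting intervals. Postn is 3.71-fold higher in AC8 among Mfap4-led members and 1.09-fold higher among Cilp-led ones, and Thbs1 is lower in AC8 in each kind.

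Between genotypes, members from AC8 hearts, summed, held more periostin, Sfrp2 and interferon-induced Ifi27l2a and less Nr4a3, thrombospondin 1 and metallothionein than members from WT hearts. Of 7446 genes with at least 30 UMIs over both libraries, 332 (4.46%) were at least 1.5-fold higher in AC8 members and 824 (11.1%) at least 1.5-fold lower. Both counts are on the log2 scale of CPM with 10 CPM added, where the median over all genes was -0.06. Over the same 7446 genes, the more numerous other fibroblasts had 93 higher (1.25%) and 267 lower (3.59%). They held 3337971 UMIs in AC8 and 3515005 in WT, against 1103279 and 938176 in members. Counting error thus differs between the groups, and these shares cannot be set directly against those of members. Adcy8 had no UMI in members of either library, which allows up to 2.72 CPM in AC8 and 3.2 CPM in WT. Whether transcripts of the overexpressed cyclase would be counted under this mouse gene was not tested. Rela, the NF-kB subunit named in the series title, had 71.6 CPM in AC8 against 73.5 CPM in WT, a ratio of 0.974 (0.696 to 1.36).

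Postn (chr3:54361109-54391037, GENCODE vM21 on GRCm38) had 1046 CPM in AC8 against 490.3 CPM in WT in members. The ratio was 2.13 (exact counting interval 1.91 to 2.38). In other fibroblasts the ratio was 1.35, which pools the rival sets. Among cells led by the Cxcl14 set the Postn ratio was larger than in members, from lower levels. After thinning, a Postn UMI was found in 34.4% of AC8 and 14.7% of WT members, in 8.53% of AC8 and 5.93% of WT other fibroblasts and in 0.254% of AC8 and 0.742% of WT leukocyte-gate cells. At least 3 Postn UMIs were held by 43 of 349 thinned AC8 members (12.3%) and 21 of 367 WT members (5.72%). In AC8 the 10 highest cells held 25.8% of Postn UMIs and in WT 50.2%, so Postn was spread over more cells in AC8. Ccn5 (chr2:163820861-163833146), a CCN protein that lacks the C-terminal domain of its relatives, had 459 CPM in AC8 against 200.4 CPM in WT in members, a ratio of 2.29 (1.93 to 2.72). In other fibroblasts it had 99.5 CPM in AC8 against 104 CPM in WT. Its direction was not the same in all members. With 3 or 4 set genes detected (168 AC8 and 91 WT members) the Ccn5 ratio was 2.94 (2.29 to 3.81), while with 2 genes (124 and 142) it was 0.579 (0.374 to 0.882) and with 1 gene (57 and 134) 0.579 (0.295 to 1.06). The summed Ccn5 value thus rests on members with 3 or 4 set genes, which are more in AC8. Set genes were counted without thinning, and AC8 members were deeper, with a median of 2989 UMIs against 2403 in WT. By leading gene Ccn5 was higher in AC8 in every kind, from 1.49 (1.21 to 1.85) in Mfap4-led to 12.9 (4.85 to 48.6) in tied members. Sfrp2, a secreted Wnt modulator, had 237 CPM in AC8 against 95.9 CPM in WT in members (2.47, 1.93 to 3.17). The Sfrp2 ratio was 3.2 (2.14 to 4.94) with 3 or 4 set genes detected. With 2 genes it was 1.42 (0.961 to 2.12) and with 1 gene 1.21 (0.469 to 2.96). By leading gene it ran from 1.77 (0.457 to 10) in Meox1-led to 3.98 (1.37 to 15.8) in tied members. Pcolce2, an enhancer of procollagen C-proteinase, had 565 CPM in AC8 against 269 CPM in WT in members (2.1, 1.81 to 2.44).

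Thbs1 (chr2:118111876-118127133), a matricellular activator of latent TGF-beta, had 124 CPM in AC8 against 289.9 CPM in WT in members, a ratio of 0.428 (0.346 to 0.528), and 148 CPM in AC8 against 514 CPM in WT in other fibroblasts. It was lower in AC8 for every leading gene, with ratios from 0.0413 (0.00101 to 0.249) in Comp-led to 0.54 (0.393 to 0.735) in Mfap4-led members. Cthrc1, a secreted protein of activated fibroblasts, had 29 UMIs in 13 AC8 members and 1 UMI in 1 WT member. Acta2, smooth muscle actin, had 48 CPM in AC8 against 83.1 CPM in WT in members, a ratio of 0.578 (0.4 to 0.83). In other fibroblasts it had 87.2 CPM in AC8 against 51.5 CPM in WT, a ratio of 1.69 (1.4 to 2.05). The 10 highest cells held 67.9% of Acta2 UMIs in AC8 members and 73.1% in WT members. Markers of mural cells, which also express Acta2, were lower in AC8 members too, and their part in the Acta2 values was not tested. Over all genes, 4.46% were at least 1.5-fold higher in AC8 members and 11.1% at least 1.5-fold lower. Of the activated fibroblast markers, 4 of 23 tested genes were at least 1.5-fold higher and 2 at least 1.5-fold lower. The higher ones were Postn, Cthrc1, Timp1 and the rule gene Meox1, and the lower ones Acta2 and Thbs1. Activated markers had a median log2 ratio of 0.20 in members and 0.20 in other fibroblasts.

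**Figure D3:**
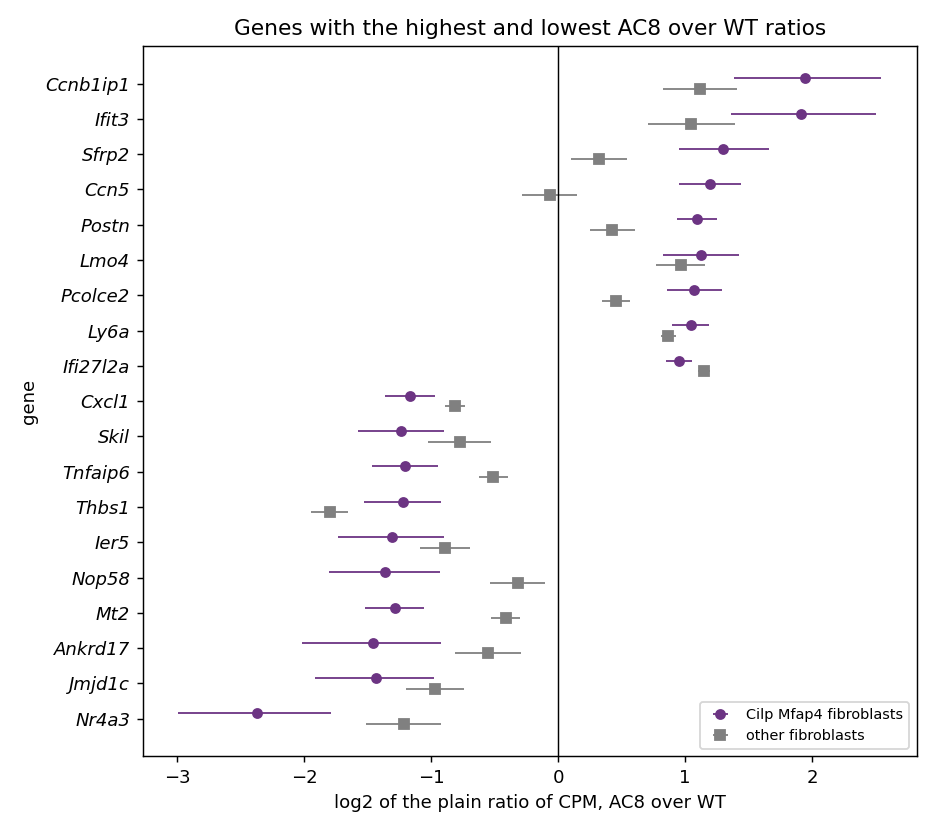
Log2 of the plain AC8 over WT ratio of CPM for the 9 reported genes among the 10 highest and the 10 lowest in members (circles), with the same ratio in other fibroblasts (squares) and exact 95% counting intervals. The direction is the same in both for 18 of the 19 genes, Ccn5 being the exception, and Nr4a3 has the lowest ratio in members.

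Some genotype differences were of another size in members than in other fibroblasts. They are given for genes that reached 100 UMIs in members and 100 CPM in 1 of the libraries or both, as a ratio of the 2 AC8 over WT ratios with a normal counting interval on the log scale. Among these genes Ccn5 stood highest at 2.4 (interval 1.92 to 3), although its ratio within members turned with 1 or 2 set genes detected, as given above. It was followed by the sushi-repeat protein Srpx2 at 2.1 (interval 1.53 to 2.87) and Sfrp2 at 1.97 (interval 1.48 to 2.61). Without Mfap4 in the set, the direction of Srpx2 within members turned. Elastin (Eln) was at 1.88 (interval 1.66 to 2.12). Eln had 1041 CPM in AC8 against 868 CPM in WT in members and 267 CPM in AC8 against 417 CPM in WT in other fibroblasts, so AC8 was higher in members and lower in the rest. Within members the Eln ratio was 4.38 (3.09 to 6.38) in Cilp-led, 1.02 (0.911 to 1.13) in Mfap4-led and 0.626 (0.424 to 0.928) in Meox1-led cells. By set genes detected, the Eln ratio was 1.99 (1.71 to 2.32) with 3 or 4, 0.55 (0.463 to 0.653) with 2 and 0.465 (0.332 to 0.639) with 1. Lowest among these genes was the metalloproteinase inhibitor Timp1 at 0.392 (interval 0.319 to 0.482), with 392 CPM in AC8 against 252 CPM in WT in members and 310.1 CPM in AC8 against 78 CPM in WT in other fibroblasts. Acta2, below the CPM limit, was at 0.341 (interval 0.23 to 0.507). Nr4a3 was at 0.449 (interval 0.288 to 0.699), the nucleolar protein Nop58 at 0.485 (interval 0.349 to 0.674), Mt2 at 0.546 (interval 0.457 to 0.652) and Mt1 at 0.561 (interval 0.531 to 0.592). The Timp1 value turned when cells were thinned before the sets were compared, and the Mt2 value without Mfap4 in the set. Apart from Acta2, these 9 genes were named for that size.

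Gene lists in this and the following paragraphs stand beside 4.46% of all genes at least 1.5-fold higher and 11.1% lower. Of the elastic fibre and microfibril genes, 1 of 24 tested genes were at least 1.5-fold higher and 0 at least 1.5-fold lower. The higher one was Efemp2 (fibulin 4, which assembles elastic fibres), with 169 CPM in AC8 against 107 CPM in WT. Elastic fibre genes had a median log2 ratio of 0.13 in members and -0.04 in other fibroblasts. Of the collagen processing genes, 2 of 20 tested genes were at least 1.5-fold higher and 1 at least 1.5-fold lower. Pcolce had 1667 CPM in AC8 against 1002 CPM in WT, and Plod2, a lysyl hydroxylase, 104 CPM in AC8 against 171 CPM in WT. Processing genes had a median log2 ratio of 0.11 in members and -0.03 in other fibroblasts. Of the collagen chains, 0 of 24 tested genes were at least 1.5-fold higher and 4 at least 1.5-fold lower. They were the basement membrane chains Col4a3, Col4a4 and Col4a6, with 39, 91 and 24 UMIs in AC8 and 66, 133 and 48 in WT, and Col15a1 with 732 CPM in AC8 against 1104 CPM in WT. Collagen chains had a median log2 ratio of -0.22 in members and -0.25 in other fibroblasts. In the basement membrane list 0 of 17 tested genes were at least 1.5-fold higher and 3 at least 1.5-fold lower, namely Col15a1, the rule gene Smoc2 and nidogen (Nid1) with 435 CPM in AC8 against 677 CPM in WT. Basement membrane genes had a median log2 ratio of -0.40 in members and -0.48 in other fibroblasts. Of the small leucine-rich proteoglycans, 0 of 12 tested genes were at least 1.5-fold higher and 2 at least 1.5-fold lower, namely Ogn with 496 CPM in AC8 against 871 CPM in WT and Podn with 59.8 CPM in AC8 against 107 CPM in WT. Proteoglycans had a median log2 ratio of -0.21 in members and -0.23 in other fibroblasts. The collagen, basement membrane and proteoglycan medians were at least as low in other fibroblasts.

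Among thrombospondins and CCN proteins, 2 of 8 tested genes were at least 1.5-fold higher and 1 at least 1.5-fold lower, namely Ccn5, the rule gene Comp and Thbs1. Thrombospondins and CCN proteins had a median log2 ratio of 0.12 in members and -0.04 in other fibroblasts. Among matrix proteases and inhibitors, 3 of 25 tested genes were at least 1.5-fold higher and 7 at least 1.5-fold lower. The higher ones were Timp1, the rule gene Mmp3, which turned without Mfap4 in the set, and Mmp23 with 342 CPM in AC8 against 214 CPM in WT. The lower ones included Timp3 with 938 CPM in AC8 against 1542 CPM in WT, the aggrecanase Adamts1 with 129 CPM in AC8 against 287 CPM in WT, and Adamts15 with 4 UMIs in AC8 and 32 in WT. Proteases and inhibitors had a median log2 ratio of -0.01 in members and -0.06 in other fibroblasts. In the TGF-beta list 2 of 24 tested genes were at least 1.5-fold higher and 3 at least 1.5-fold lower. Postn and the inhibitory Smad6 (48 CPM in AC8 against 22.4 CPM in WT) were higher, while the lower ones included the signal transducer Smad3 (11.8 CPM in AC8 against 24.5 CPM in WT) and the pathway repressor Skil (99.7 CPM in AC8 against 234 CPM in WT). TGF-beta genes had a median log2 ratio of -0.12 in members and -0.01 in other fibroblasts. Of the cartilage and tendon genes, 3 of 11 tested genes were at least 1.5-fold higher and 2 at least 1.5-fold lower. The higher ones were Prg4 and the rule genes Cilp and Comp, and the lower ones Angptl7 with 33.5 CPM in AC8 against 67.2 CPM in WT and Ecrg4 with 29.9 CPM in AC8 against 56.5 CPM in WT, which turned when at least 2 set UMIs were asked for. Cartilage and tendon genes had a median log2 ratio of -0.24 in members and -0.06 in other fibroblasts.

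Of the Wnt and BMP modulators, 3 of 20 tested genes were at least 1.5-fold higher and 3 at least 1.5-fold lower. Besides Sfrp2 they included the activin-binding Fstl3 with 141 CPM in AC8 against 75.7 CPM in WT on the higher side and Gdf10 with 19 CPM in AC8 against 43.7 CPM in WT on the lower. Wnt and BMP modulators had a median log2 ratio of 0.02 in members and -0.06 in other fibroblasts. In the IGF system, 1 of 11 tested genes were at least 1.5-fold higher and 3 at least 1.5-fold lower. The binding protein Igfbp6 had 1060.5 CPM in AC8 against 665 CPM in WT and Igfbp5 had 161 CPM in AC8 against 289 CPM in WT. IGF system genes had a median log2 ratio of -0.01 in members and 0.05 in other fibroblasts.

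**Figure D4:**
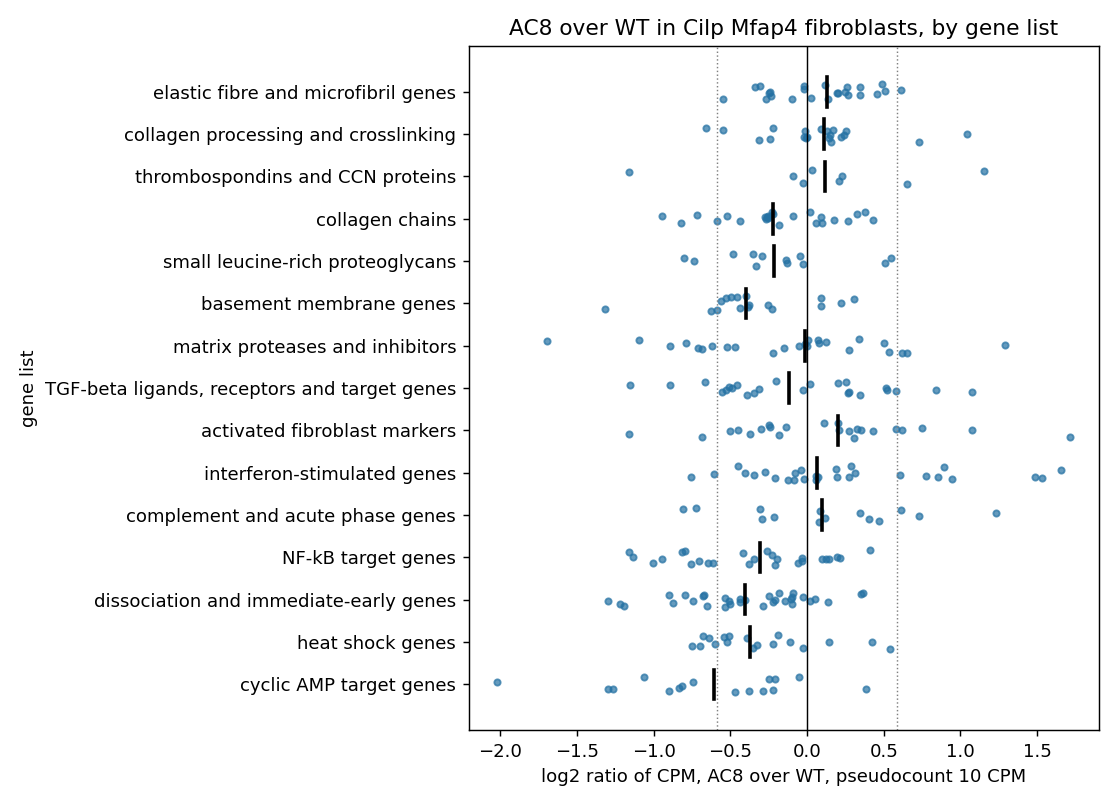
Log2 AC8 over WT ratio in members, with 10 CPM added, for the tested genes of 15 lists (points), with each list's median (bar) and dotted lines at 1.5-fold either way. The cyclic AMP target list has the lowest median, -0.61.

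Genes that cyclic AMP is known to induce stood lower in AC8 members. Of the cyclic AMP targets, 0 of 16 tested genes were at least 1.5-fold higher and 8 at least 1.5-fold lower, beside 11.1% lower over all genes. Cyclic AMP targets had a median log2 ratio of -0.61 in members and -0.37 in other fibroblasts. In other fibroblasts 0 of these 16 genes were higher and 5 lower, beside 3.59% lower over all genes. Whether the list differed between the groups was not tested. The orphan nuclear receptor Nr4a3 (chr4:48045153-48086447) had 27.2 CPM in AC8 against 141 CPM in WT in members, a ratio of 0.193 (0.125 to 0.289), and 41 CPM in AC8 against 95.3 CPM in WT in other fibroblasts. Its relatives Nr4a1 and Nr4a2 had 737 CPM in AC8 against 1243 CPM in WT and 33.5 CPM in AC8 against 97 CPM in WT. Pde4b and Pde3a, phosphodiesterases that degrade cyclic AMP, had 114 CPM in AC8 against 249 CPM in WT and 32.6 CPM in AC8 against 66.1 CPM in WT. The kinase Sik1 had 18.1 CPM in AC8 against 57.6 CPM in WT, the clock gene Per1 54.4 CPM in AC8 against 103 CPM in WT and the AP-1 subunit Fosb 803 CPM in AC8 against 1509 CPM in WT. These 8 genes are the ones of the list past 1.5-fold. Tissue dissociation is also known to induce several of them. In the dissociation and immediate-early list 0 of 33 tested genes were at least 1.5-fold higher and 10 at least 1.5-fold lower, among them the transcription factor Egr1 with 2306 CPM in AC8 against 4241 CPM in WT. Immediate-early genes had a median log2 ratio of -0.41 in members and -0.21 in other fibroblasts, where 0 were higher and 6 lower. In the heat shock list 0 of 18 tested genes were at least 1.5-fold higher and 5 at least 1.5-fold lower, among them the chaperone Hspa1a with 291 CPM in AC8 against 479 CPM in WT. Heat shock genes had a median log2 ratio of -0.37 in members and -0.42 in other fibroblasts, where 0 were higher and 6 lower. The immediate-early list shares Dusp1, Nr4a1, Nr4a2 and Fosb with the cyclic AMP list, and its part in the result was not tested.

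The promoters of Nr4a3 (chr4:48045055-48045152, plus strand) and Fosb (chr7:19310052-19310295, minus strand) are shown because they hold the core of the cyclic AMP response element, TGACG, which CREB is known to bind. They come from the 250 bases before the RefSeq start on GRCm38.p6, end before the GENCODE start, and run 5′ to 3′ with matches on either strand in capitals.
Nr4a3: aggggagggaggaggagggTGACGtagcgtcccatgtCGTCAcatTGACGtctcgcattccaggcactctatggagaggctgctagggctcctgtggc
Fosb: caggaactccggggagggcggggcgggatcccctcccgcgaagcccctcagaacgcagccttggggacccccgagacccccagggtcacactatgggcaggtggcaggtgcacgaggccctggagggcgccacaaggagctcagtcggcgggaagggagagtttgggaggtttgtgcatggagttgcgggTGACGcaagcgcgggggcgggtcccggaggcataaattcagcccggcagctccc
TGACG occurred on either strand in 17.8% of 32851 promoters of 250 bases. Of the 8 cyclic AMP targets at least 1.5-fold lower, 6 had a promoter in the table and all 6 held TGACG in at least 1 of their promoters. Of the remaining tested targets, 3 of 4 with a promoter held it. A match describes letters in this window.

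NF-kB targets also stood lower in AC8 members. In that list 0 of 26 tested genes were at least 1.5-fold higher and 10 at least 1.5-fold lower, beside 11.1% lower over all genes. In other fibroblasts 1 was higher and 4 lower, beside 3.59% lower over all genes, and whether the list differed between members and other fibroblasts was not tested. NF-kB targets had a median log2 ratio of -0.31 in members and -0.08 in other fibroblasts. The hyaluronan-binding Tnfaip6 had 169 CPM in AC8 against 389 CPM in WT (0.433, 0.361 to 0.518), and the neutrophil chemokine Cxcl1 had 298 CPM in AC8 against 668 CPM in WT (0.446, 0.389 to 0.511). Nfkbiz, a nuclear regulator of the pathway, had 168 CPM in AC8 against 268 CPM in WT and the prostaglandin synthase Ptgs2 182 CPM in AC8 against 284 CPM in WT. The cytokine Il6 had 15 UMIs in AC8 and 35 in WT members. For the monocyte chemokine Ccl2 the 10 highest cells held 87.1% of AC8 and 94.2% of WT UMIs, so its value rests on few cells, and its direction turned in several alternatives. Of the growth factors and receptors, 1 of 25 tested genes were at least 1.5-fold higher and 4 at least 1.5-fold lower, such as Vegfb with 83.4 CPM in AC8 against 43.7 CPM in WT and the alarmin Il33 with 26.3 CPM in AC8 against 50.1 CPM in WT. Growth factor genes had a median log2 ratio of -0.14 in members and -0.13 in other fibroblasts. Of the mesenchymal transcription factors, 1 of 29 tested genes were at least 1.5-fold higher and 4 at least 1.5-fold lower. The higher one was the rule gene Meox1, and its relative Meox2 had 24.5 CPM in AC8 against 48 CPM in WT and Prrx1 62.5 CPM in AC8 against 99.1 CPM in WT. These transcription factors had a median log2 ratio of -0.11 in members and -0.09 in other fibroblasts. The remaining genes among the 10 lowest were Jmjd1c with 50.8 CPM in AC8 against 138 CPM in WT, Ankrd17 with 38.1 CPM in AC8 against 104 CPM in WT, Nop58 with 58.9 CPM in AC8 against 151 CPM in WT and the immediate-early Ier5 with 66.2 CPM in AC8 against 164 CPM in WT.

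A few interferon-induced genes were higher in AC8 members, while the median of their list lay near 0. Of the interferon-stimulated genes, 8 of 28 tested genes were at least 1.5-fold higher and 2 at least 1.5-fold lower, beside 4.46% higher and 11.1% lower over all genes. Interferon-stimulated genes had a median log2 ratio of 0.06 in members and 0.21 in other fibroblasts. Ifi27l2a, an interferon-induced mitochondrial protein, had 2275 CPM in AC8 against 1178 CPM in WT, a ratio of 1.93 (1.8 to 2.08), and a ratio of 2.22 in other fibroblasts. Ifit3 had 132 CPM in AC8 against 35.2 CPM in WT (3.76, 2.56 to 5.67), but a single AC8 member held 41.8% of its UMIs. Without the highest member of each library its log2 ratio was 1.09, against 1.66 with them. Ifit3 and its near copy Ifit3b (33 UMIs in AC8 and 4 in WT) share sequence, so the split of reads between them is uncertain. The ubiquitin-like Isg15 had 133 CPM in AC8 against 67.2 CPM in WT, while the transcription factor Irf1 had 82.5 CPM in AC8 against 131 CPM in WT, a direction that turned without Mfap4 in the set. Ly6a, the surface protein Sca-1, had 1224 CPM in AC8 against 594 CPM in WT, a ratio of 2.06 (1.87 to 2.28). Of the MHC class I genes, 1 of 17 tested genes were at least 1.5-fold higher and 0 at least 1.5-fold lower, the higher one being the proteasome activator Psme1 with 164 CPM in AC8 against 104 CPM in WT. MHC class I genes had a median log2 ratio of 0.12 in members and 0.18 in other fibroblasts. Of the complement and acute phase genes, 3 of 14 tested genes were at least 1.5-fold higher and 2 at least 1.5-fold lower. Among them the component C3 had 651 CPM in AC8 against 388 CPM in WT, C4b 73.4 CPM in AC8 against 25.6 CPM in WT and the terminal component C7 417 CPM in AC8 against 695 CPM in WT. For C4b the 10 highest cells held 66.7% of the UMIs in members of either library, and a single AC8 member held 24.7%. Complement genes had a median log2 ratio of 0.10 in members and 0.22 in other fibroblasts. Macrophage markers were higher in AC8 members too, and their part in these values was not tested.

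The promoters of Ifit3 (chr19:34583279-34583528, plus strand) and Isg15 (chr4:156200819-156201068, minus strand) are shown because they hold the interferon response element, searched as a pair of GAAA separated by any 2 bases. They are printed as above, with matches on either strand in capitals, which in Isg15 overlap.
Ifit3: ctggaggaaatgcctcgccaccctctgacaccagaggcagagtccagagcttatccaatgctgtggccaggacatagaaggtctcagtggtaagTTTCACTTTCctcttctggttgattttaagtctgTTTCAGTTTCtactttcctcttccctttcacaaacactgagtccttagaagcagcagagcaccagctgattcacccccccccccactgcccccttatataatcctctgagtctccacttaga
Isg15: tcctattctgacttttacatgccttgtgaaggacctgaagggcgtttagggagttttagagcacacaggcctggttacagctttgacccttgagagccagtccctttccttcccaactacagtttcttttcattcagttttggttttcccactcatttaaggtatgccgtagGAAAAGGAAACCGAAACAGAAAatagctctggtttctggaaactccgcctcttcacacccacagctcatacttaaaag
The motif occurred on either strand in 2.98% of 32851 promoters. It was held by 5 of 7 interferon-stimulated genes at least 1.5-fold higher in AC8 members with a promoter in the table, by 0 of 2 lower ones and by 3 of 13 in between. A gene counted if at least 1 of its promoters held the motif, whereas the 2.98% counts single promoters, so the measures differ.

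Also near the top were Ccnb1ip1, a ubiquitin ligase of meiotic crossover, with 131 CPM in AC8 against 34.1 CPM in WT, and the LIM-domain regulator Lmo4, with 302 CPM in AC8 against 139 CPM in WT. Both were also higher in AC8 among other fibroblasts, by 2.17-fold and 1.95-fold. Ccnb1ip1 was found in 45 AC8 and 26 WT members, and a single AC8 member held 20% of its AC8 UMIs. Its 10 highest cells held 66.9% in AC8 members and 50% in WT members. Of the metallothionein and antioxidant genes, 4 of 21 tested genes were at least 1.5-fold higher and 3 at least 1.5-fold lower. Extracellular superoxide dismutase Sod3 had 1097 CPM in AC8 against 715 CPM in WT and the peroxiredoxin Prdx1 799 CPM in AC8 against 509 CPM in WT. The metal-binding Mt1 had 2262 CPM in AC8 against 4719.8 CPM in WT, Mt2 206 CPM in AC8 against 502 CPM in WT and the glutathione transferase Gstm1 402 CPM in AC8 against 746 CPM in WT. Metallothionein and antioxidant genes had a median log2 ratio of 0.12 in members and 0.24 in other fibroblasts. In Mfap4-led members Mt1 in AC8 and WT had 2365 and 5729 CPM, whereas Cilp-led members had 1432 and 1289.9 CPM. Of 12 fibroblast identity genes 0 passed 1.5-fold. Identity genes had a median log2 ratio of -0.01 in members and 0.01 in other fibroblasts. Of the mitochondrially encoded genes, 0 of 13 tested genes were at least 1.5-fold higher and 3 at least 1.5-fold lower. Mitochondrially encoded genes had a median log2 ratio of -0.36 in members and -0.45 in other fibroblasts. Of the ribosomal protein genes, 2 of 80 tested genes were at least 1.5-fold higher and 8 at least 1.5-fold lower. These are 2.5% and 10%, beside 4.46% higher and 11.1% lower over all genes. Ribosomal protein genes had a median log2 ratio of 0.06 in members and -0.01 in other fibroblasts.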

How the data were processed

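Single cells of mouse hearts were measured in 1 AC8 and 1 WT droplet library. The deposited matrices hold raw UMI counts for each gene in each cell. Cell Ranger and mm10 are named in the submitters' processing notes, without a version. The libraries held 4867 AC8 cells with 11076564 UMIs and 5800 WT cells with 9664932 UMIs, and the 349 AC8 and 367 WT members held 1103279 and 938176 UMIs. The lowest total of a deposited cell was 500 UMIs in both.

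For members and for other fibroblasts, UMIs were summed per library and scaled to 1000000 (CPM). Log2 ratios used a pseudocount of 10 CPM, so they understate low genes, and folds are plain ratios. Genes with at least 30 UMIs over both groups compared were tested against a limit of 1.5-fold, with no p-value. For AC8 over WT in other fibroblasts, the genes were instead those with at least 30 UMIs in members. Intervals at 95% are exact Poisson for CPM, exact binomial for ratios and Clopper-Pearson for shares, and UMIs of 1 cell are not independent. A count of 0 allows up to 3 counts. Named genes were the 10 highest and lowest in AC8 over WT, the 12 highest and 8 lowest in members over other fibroblasts, and the 5 highest and lowest ratios of ratios, with at least 100 CPM in the higher library. In that library they also needed at least 20% of the level in the leukocyte gate and in the endothelial gate. Among genes that failed this limit, the largest AC8 over WT ratios either way were those of Lyz2, Cd74, H2-Eb1, Ly6c1, Nrp1, Cd200, Trf and Ctsb. Not all of them would have ranked among the 10 highest or lowest. For lists, genes past 1.5-fold were named, and of these a selection is described with values. A gene named by these rules is not reported here. Members and the 25 gene lists were chosen with earlier results of these data known. The code was tested on simulated counts. Positions are from GENCODE vM21 on GRCm38, where 22039 of 22441 symbols matched. The work used pandas 2.3.3 and scipy 1.17.1 with numpy 2.4.6 under Python 3.11.15, and matplotlib 3.10.9. Alternatives changed cell filters, membership, depth, scaling, pseudocount and low-count limits.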

Additional observations from a re-analysis of the deposited data

Results flagged for a closer look

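Acta2, which encodes smooth muscle actin, differed between genotypes in opposite directions in the 2 fibroblast groups. Its log2 ratio of AC8 over WT was -0.68 in members (48 CPM in AC8 and 83.1 CPM in WT), from 53 and 78 UMIs, and 0.66 in other fibroblasts (87.2 CPM in AC8 and 51.5 CPM in WT). The difference was not tested, since each genotype has 1 library. Mural markers summed to 23.6 CPM in AC8 and 88.5 CPM in WT members and 69.2 CPM in AC8 and 116 CPM in WT other fibroblasts.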

How the results depend on the processing

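The 19 reported genes with the highest and lowest AC8 over WT ratios kept their direction in all 17 alternatives. Of them 18 stayed past 1.5-fold throughout, Mt2 falling inside in 1 (log2 range -1.52 to -0.48). The limits on UMIs per gene leave a gene's ratio as it is, and the pseudocount of 1 CPM cannot turn its direction. The other alternatives reuse cells of the same libraries, in which these genes were chosen as extremes, so they are no independent check. Without Cilp, Mfap4, Comp or Meox1 in the set, Postn kept its direction too, within a log2 range of 0.73 to 1.35 over all alternatives. Leaving out the member with the most UMIs of a gene in each library, chosen after seeing the data, changed no direction among the genes tried.

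Member shares were 13.9% in AC8 and 10.6% in WT when the set had to reach 2 times the next, 19.9% in AC8 without Meox1 and 15.6% in WT without Mfap4. Counts of genes depended on the limits. With a pseudocount of 1 CPM, 586 genes were higher and 1261 lower in AC8 members, and members stood above other fibroblasts for 498 genes in AC8 and 571 in WT and below for 915 and 824. With at least 100 UMIs per gene the counts were 156 and 313, 138 and 153, and 185 and 184. Thinning gave 505 lower in AC8 members and 563 (AC8) and 568 (WT) below other fibroblasts. For AC8 over WT in members, 3291 genes were tested with at least 100 UMIs and 3868 after thinning, against 7446 in the main comparison. These counts therefore cannot be set directly against the main ones. Tested numbers for members against other fibroblasts were not recorded under the alternatives. Under the 2-times rule, 407 WT genes stood above and 526 AC8 and 532 WT genes below, and without cells with other types' markers 474 WT genes stood below. The cause of these changes was not tested, apart from the number of genes and cells that each limit leaves.

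These log2 ratios of AC8 over WT in members reversed. Without Mfap4 in the set, Bmp6 was -0.0072, Irf1 0.086, Mmp3 -0.038 and Srpx2 -0.11. Ccl2 was 0.38 without Cilp, 0.18 without the 5% of cells with most UMIs, 0.019 after thinning and 1.39 without cells with other types' markers, where Ccl7 was 0.31 and Adamts4 0.12. Ecrg4 was 0.17 with at least 2 set UMIs. The log2 ratio of ratios was 0.090 for Mt2 without Mfap4 and 0.15 for Timp1 with cells thinned before the sets were compared. The cause was not tested. List medians of cyclic AMP, NF-kB, immediate-early, heat shock, basement membrane and collagen genes kept their sign in all 17 alternatives, and those of activated markers and interferon-stimulated genes in 15. No paired analysis was possible because each genotype has 1 library.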

Other observations

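Cells with 500 to 999 UMIs lay under the rule's depth and entered no comparison. In this range the same set led in 20 of 79 AC8 and 26 of 237 WT fibroblast-gate cells. Postn had 19 UMIs (1156 CPM) in these AC8 cells and 10 UMIs (491 CPM) in these WT cells, a ratio of 2.35 (1.04 to 5.66). Thbs1 had 9 and 27 UMIs, a ratio of 0.413 (0.171 to 0.904), and Ifi27l2a 26 and 6, a ratio of 5.36 (2.16 to 15.9). Ccn2, with 58 UMIs in AC8 and 24 in WT, had a ratio of 2.99 here and 0.98 in members, and Prg4, with 4 and 16 UMIs, 0.31 here and 1.89 in members. Mt1 had a ratio of 0.965 (0.661 to 1.4) here and 0.479 in members, and Cxcl1 1.13 (0.429 to 2.92) here and 0.446 in members. Sfrp2 had 0 UMIs in AC8 and 4 in WT, Nr4a3 1 and 4, and Ccn5 2 and 2.

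Among the rival populations, Postn in AC8 and WT stood at 89.1 and 18.2 CPM in cells led by the Cxcl14 set, 174 and 161 CPM in cells led by the Ccl19 set and 226 and 195 CPM in cells led by the Pi16 set. The Postn ratio of AC8 over WT was thus larger in Cxcl14-led cells than in members. Cxcl14-led cells made up 26.4% of AC8 and 36.4% of WT gate cells. Timp1 stood at 85.3 and 38.5 CPM, 418 and 123 CPM and 402 and 98.9 CPM in the same order of sets, with every AC8 value above its WT value.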
